A study of Mus musculus with 2 samples.

Results

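The clustered protocadherins are cell surface adhesion proteins encoded side by side in the alpha, beta and gamma clusters of mouse chromosome 18. The protein-coding genes of these clusters were taken by symbol from the GENCODE M21 annotation, which gave 57 of 21938 protein-coding genes: 14 in the alpha, 22 in the beta and 21 in the gamma cluster. These carry 56 distinct symbols, because 2 gene models are both called Pcdha11; the model ENSMUSG00000007440 lies where RefSeq places Pcdha10, and ENSMUSG00000102206 is Pcdha11 in RefSeq. Pcdhgb8, annotated as a polymorphic pseudogene, is not a member. All members lie on the plus strand. On mm10 the alpha cluster spans chr18:36930184-37187661, the beta cluster chr18:37264938-37524479 and the gamma cluster chr18:37661793-37841873.

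Accessible chromatin was measured by DNase-seq, which maps where the nuclease DNase I cuts DNA in isolated nuclei; such openings mark active or poised promoters and distal regulatory elements. The tissue was left cerebral cortex of male B6CASTF1/J mice, hybrids of a laboratory strain and a wild-derived one, at 14 days of age. There was 1 group, untreated as far as the labels say, with 2 libraries: the label of replicate 1 names 3 males and that of replicate 2 names 1 male. Both labels give the same donor identifier, so the spread between the libraries may not be a spread between animals. With 1 group and no second condition, values are described for each library and no test between groups exists.

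As background, each alpha or gamma gene has its own large first exon, with its own promoter. That exon is spliced to constant exons shared by the whole cluster, while most beta genes are a single exon. The variable genes are known to be chosen in different combinations by individual neurons, which gives each cell a surface identity used in self-avoidance of its branches. The 5 C-type genes, Pcdhac1, Pcdhac2, Pcdhgc3, Pcdhgc4 and Pcdhgc5, stand at the ends of the alpha and gamma arrays and are expressed more broadly. The protein CTCF binds most variable promoters and distal enhancers of the clusters and, with the ring complex cohesin, loops them together; methylation of the promoters opposes this. Because whole tissue was used, a weak peak from few cells with a fully open site and one from a slight opening in many cells cannot be told apart.

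The inclusive peak lists held 150726 peaks in replicate 1 and 155536 in replicate 2. Peak signal is the authors' deposited height of each peak. Each value lay within 0.05 of a whole multiple of a smallest step, 0.00474 in replicate 1 and 0.00614 in replicate 2, and a median peak measured 116 and 108 steps. Markers of the tissue were open: a promoter peak stood at 8 of 8 pan-neuronal and 6 of 6 excitatory neuron genes in both libraries. The highest of each list were Syt1 (4.51 and 6.74) and Nrgn (3.74 and 6.26). Median signals were 3.23 and 2.85 for the pan-neuronal and 2.65 and 3.43 for the excitatory list. These medians lay below those of all genes with a promoter peak, 3.47 and 3.91. Over all protein-coding genes 66.7% had a promoter peak in both libraries. Among markers of other cell types of the cortex, this held for 5 of 5 inhibitory neuron, 6 of 6 astrocyte, 4 of 6 oligodendrocyte lineage, 5 of 6 microglial and 3 of 6 endothelial genes. The lists for tissue at the edge of the sample gave 2 of 6 for choroid plexus and 3 of 6 for meninges and fibroblasts, with none at Ttr and Folr1, and 0 of 6 for liver.

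A few promoters of the clusters had a clear peak, while most had a weak one or none called. A promoter peak, the strongest peak within 1000 bp of an annotated start, was present at 37 of 57 members in replicate 1 (64.9%) and 26 of 57 in replicate 2 (45.6%), which is 55.3% ± 13.6 (SD, n = 2). Over all protein-coding genes the shares were 68.7% and 68.1%. A peak stood at 23 members in both libraries, at 17 in 1 library only and at 17 in neither; over all genes 66.7% had one in both and 29.8% in neither. The 17 members called in 1 library included 14 seen in replicate 1 only and 3 in replicate 2 only. Under the authors' shorter, stricter peak list 14 members kept a promoter peak in replicate 1 and 13 in replicate 2, against 64.4% and 63.3% of all genes.

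**Figure D1:**
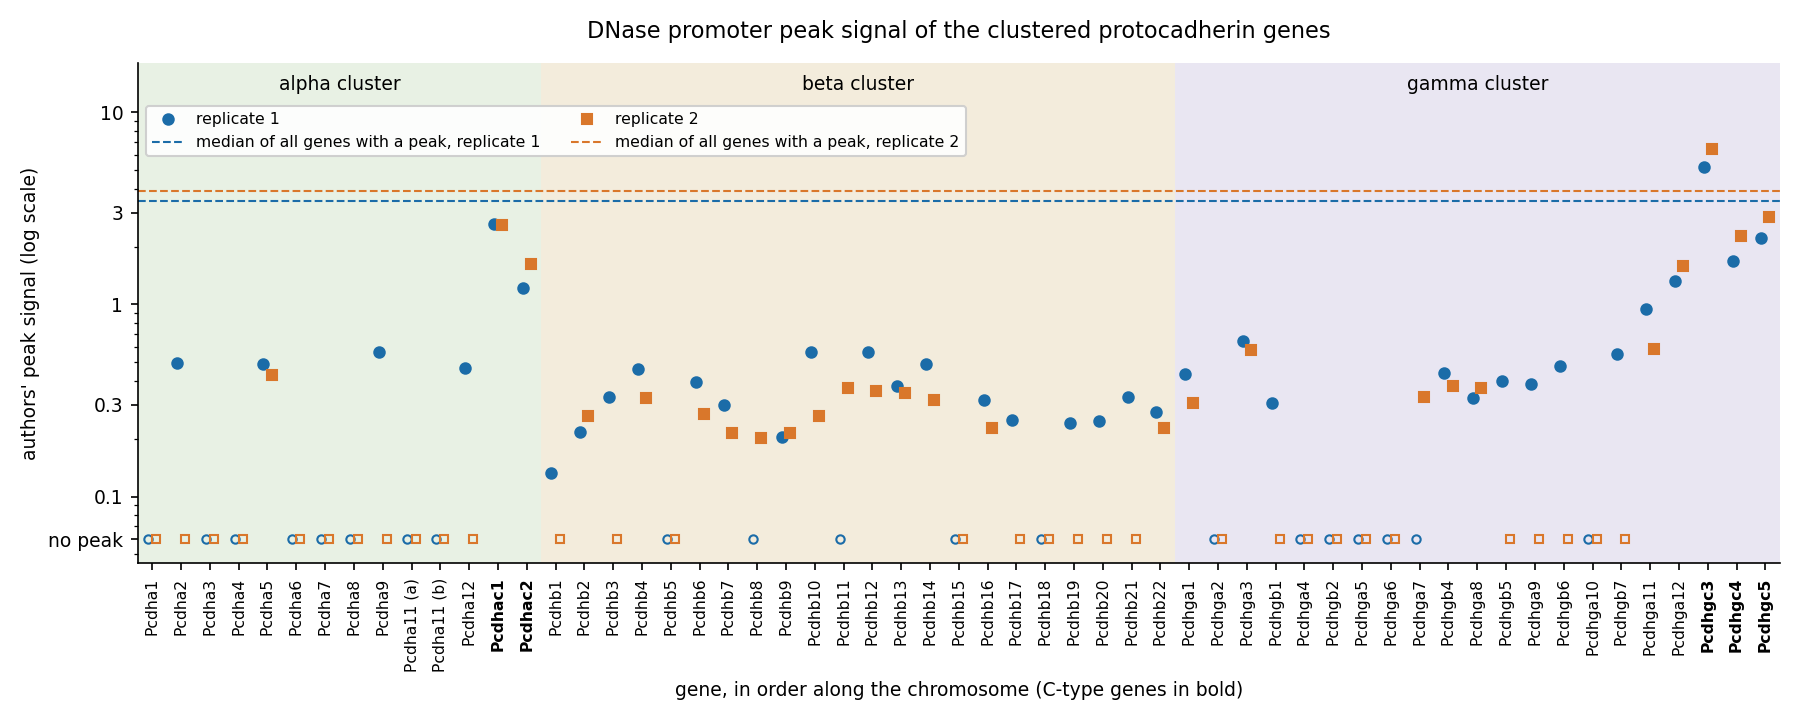
Promoter peak signal (log axis) of the 57 members in order along the chromosome, circles for replicate 1 and squares for replicate 2, with open symbols at the bottom for a member with no peak and dashed lines at the median of all protein-coding genes with a peak (3.47 and 3.91). Only Pcdhgc3 lies above the dashed lines; the 2 models of Pcdha11 are marked (a), ENSMUSG00000007440, and (b), ENSMUSG00000102206.

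All 5 C-type genes had a promoter peak in both libraries and in both peak lists. The variable genes Pcdhb4, Pcdhb12, Pcdhb14, Pcdhga3 and Pcdhga12 did so as well. The C-type genes stood out by signal: by the mean, Pcdhga12 (1.45) was the only variable gene above any of them, Pcdhac2. Pcdhgc3, which in the gamma array comes right after the last variable gene, had the highest signal of any member, 5.22 in replicate 1 and 6.47 in replicate 2 (mean 5.84 ± 0.88, SD, n = 2). This put it at the 67.4th and 69.0th percentile of all genes with a promoter peak, so it was the only member above their medians of 3.47 and 3.91. Pcdhac1, which opens the C-type pair of the alpha array, measured 2.63 and 2.59 (2.61 ± 0.03), and Pcdhac2, the last alpha gene before the constant exons, 1.22 and 1.63 (1.42 ± 0.29). Pcdhgc5, at the end of the gamma array, gave 2.22 and 2.86 (2.54 ± 0.45). Pcdhgc4, an isoform known to be needed for survival of neurons, gave 1.69 and 2.27 (1.98 ± 0.41). The median of the 5 was 2.22 and 2.59, and their percentiles ran from 22.0 to 67.4 in replicate 1 and from 25.8 to 69.0 in replicate 2.

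The C-type promoters were also the broadest. Intervals with a q-value up to 0.05 for the cleavage rate covered a median of 780 and 616 bases within 500 bp of their 5′ ends, against 439 and 374 over all protein-coding genes and 114 and 0 over the variable members. Pcdhac1, Pcdhac2, Pcdhgc3 and Pcdhgc5 each had a second peak further inside the gene, and the 1 inside Pcdhgc5 reached 1.06 and 1.19. This was not limited to C-type genes: the variable gene Pcdhga12 had a second peak of 0.85 and 1.01 in its first exon, centred 58 bp from the start of Gm26672. The C-type genes had a median of 44 CpG dinucleotides around the start, close to the 41 of all genes, with 16 at Pcdhgc5 and 67 at Pcdhgc3.

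The 52 variable genes were open in 32 and 21 cases, and their median signals were 0.40 and 0.33. Their open promoters ranked at a median percentile of 4.64 and 2.22 among all genes with a peak. Pcdhga12 was the exception. As the last variable gamma gene, next to Pcdhgc3, it measured 1.33 and 1.58 (1.45 ± 0.18), above Pcdhac2 in replicate 1 and just below it in replicate 2. Its neighbour Pcdhga11 followed with 0.95 and 0.58, where the libraries differed more (0.77 ± 0.26). All other variable members lay between 0.13 and 0.65 where a peak was called.

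**Figure D2:**
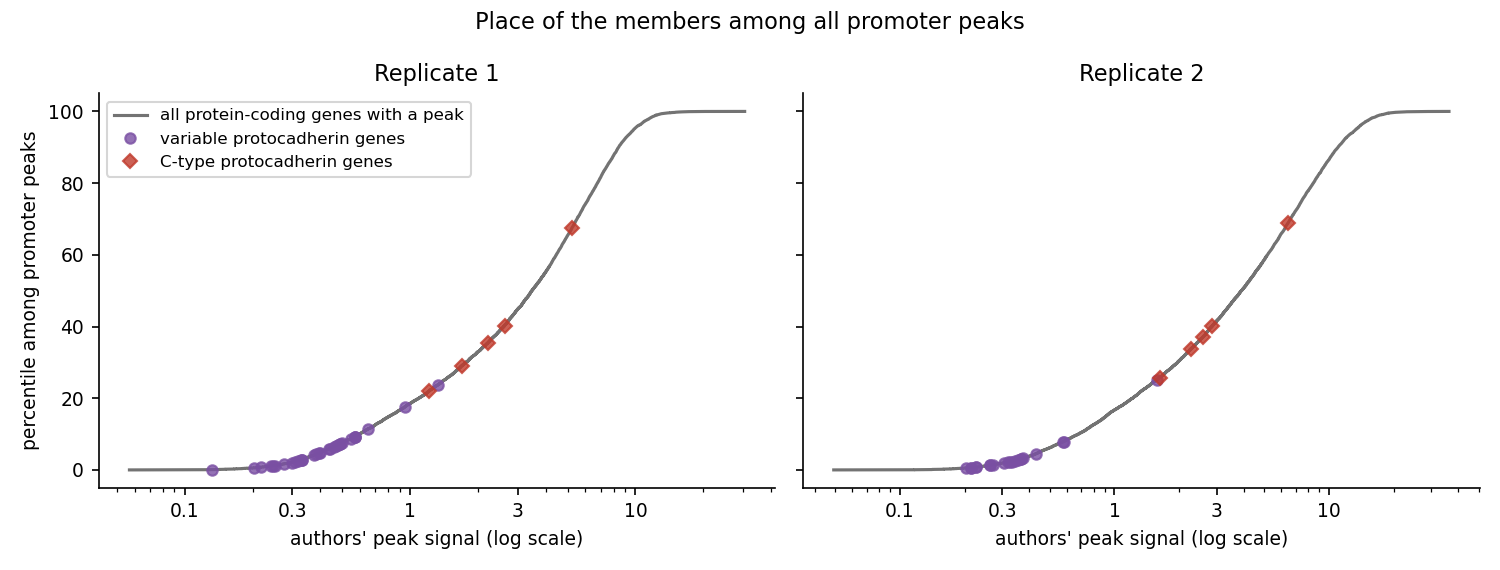
Cumulative distribution (grey line) of promoter peak signal (log axis) over all protein-coding genes with a peak, in replicate 1 (left) and replicate 2 (right), with the variable members as circles and the C-type members as diamonds. Variable members sit at the foot of both curves, except Pcdhga12 at the 23.7th and 25.1st percentile, while the C-type members reach up to the 67.4th and 69.0th.

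In the alpha cluster the variable promoters were mostly without a peak: 4 of 12 had one in replicate 1 and 1 of 12 in replicate 2. Pcdha5 alone had one in both libraries, 0.49 and 0.43, but its centre lay 447 and 448 bp inside the first exon and not at the start. Pcdha2 (0.50), Pcdha9 (0.57) and Pcdha12 (0.47) had one in replicate 1 only. That of Pcdha12 was centred 548 bp after its 5′ end and 18 bp from the start of the antisense gene Gm10545, closer to that start than to its own. No peak was called in either library for Pcdha1, Pcdha3, Pcdha4, Pcdha6, Pcdha7, Pcdha8 and both Pcdha11 models. Of these, only Pcdha8 had bases with a q-value up to 0.05 near its start, 13 of them, in replicate 1.

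Part of the sequence around the variable alpha starts is not unique in the genome. Of the 31-base windows around the start of a variable alpha gene, between 9.89% and 29.0% (median 22.5%) also occur elsewhere in the genome, against a median of 0% for the beta and 2.68% for the variable gamma genes and 0% for every C-type gene. Members with no peak in either library had a median of 5.15%, variable members with a peak in both 1.34%, and all members with a peak in both, which include the C-type genes, 0%. The ranges were alike, 0% to 29.0% with no peak in either library and 0% to 29.45% with a peak in both. Of the 17 members with no peak, 8 are alpha genes. Whether reads from windows that occur elsewhere were discarded is not given in the sources used here. The part of this in the missing alpha peaks was not tested.

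The beta cluster had many promoters with a peak in the inclusive list, at low signal. A peak was called at 17 of 22 members in replicate 1 (77.3%) and 13 of 22 in replicate 2 (59.1%), in replicate 1 the only cluster above the share over all genes. With the stricter list the mean count was 5.5 members, as in the gamma cluster, and with the stronger 50% of all peaks it was 1, against 5.5 in the gamma and 2.5 in the alpha cluster, so the order of the clusters turns with the list. The median beta signal was 0.32 and 0.26, and no beta promoter passed 0.57. The 5 highest were Pcdhb12 with 0.57 and 0.36 (0.46 ± 0.15), Pcdhb10 with 0.57 and 0.26, Pcdhb14 with 0.49 and 0.32, Pcdhb4 with 0.46 and 0.33, and Pcdhb13 with 0.37 and 0.34. Pcdhb9 (0.20 and 0.21), Pcdhb2 (0.22 and 0.26) and Pcdhb22 (0.27 and 0.23) were the lowest of those open in both libraries. Means over the libraries ran from 0.21 to 0.46 among these genes, while Pcdhb10 alone moved from 0.57 to 0.26 between the libraries, so their order is not resolved.

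Single-library beta peaks were seen in replicate 1 for Pcdhb1 (0.13), Pcdhb3 (0.33), Pcdhb17 (0.25), Pcdhb19 (0.24), Pcdhb20 (0.25) and Pcdhb21 (0.33). In replicate 2 they were seen for Pcdhb8 (0.20) and Pcdhb11 (0.37). Pcdhb1, whose 28 steps made it the weakest peak of any member, stands apart from the rest of the array at its upstream end. Pcdhb5, Pcdhb15 and Pcdhb18 had no peak in either library. Beta starts were poor in CpG, with a median of 15 and a range of 6 to 32, against 34.5 for the variable alpha and 32 for the variable gamma genes.

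In the gamma cluster the 2 variable members with the highest mean signal were the last 2 of the array. In replicate 2, however, Pcdhga11 measured 0.58, the same as Pcdhga3 further upstream. A peak was called at 11 of 18 variable gamma genes in replicate 1 and 7 of 18 in replicate 2. Beside Pcdhga12 and Pcdhga11, the genes open in both libraries were Pcdhga3 (0.65 and 0.58), Pcdhgb4 (0.44 and 0.37), Pcdhga1 (0.44 and 0.31) and Pcdhga8 (0.33 and 0.37). Open in replicate 1 only were Pcdhgb1 (0.31), Pcdhgb5 (0.40), Pcdhga9 (0.38), Pcdhgb6 (0.48) and Pcdhgb7 (0.55), and in replicate 2 only Pcdhga7 (0.33). Pcdhga2, Pcdhga4, Pcdhgb2, Pcdhga5, Pcdhga6 and Pcdhga10 had no peak. Of these 6, 5 lie in the upstream part of the array, before Pcdhga7, a grouping noticed after the values were seen. The pseudogene Pcdhgb8, between Pcdhga11 and Pcdhga12, had a peak of 0.92 and 0.63 at its start.

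Between the libraries, most C-type genes and most variable genes differed in opposite directions. Among members with a peak in both, replicate 2 was higher for 4 of 5 C-type genes, with a median log2 ratio of 0.37, and over all genes it was higher for 10922 of 14628, with a median of 0.22. Among variable genes it was lower for 14 of 18, with a median log2 ratio of -0.37; for the beta cluster this was -0.48, lower for 9 of 11. Fewer members were called in replicate 2 in each cluster as well. The ratios cover only members called in both libraries, most variable ones at weak signal, and other genes of similar signal were not compared. As the scaling of the signal is not stated, ratios between the libraries may not be comparable. The replicates differ in the number of males named, in the smallest step and in the peak lists' lengths, and the part of each in this difference was not tested.

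Where called, most promoter peaks sat just upstream of the start. The centre lay within 200 bp of the 5′ end for 32 of 37 peaks in replicate 1 and 22 of 26 in replicate 2, at a median of -33 bp and -35.5 bp, and over all genes the median was -21 bp and -25 bp. The exceptions were Pcdha5 and Pcdha12, described above, Pcdhb22, Pcdhga12 and Pcdhgc4. The last 3 have a further annotated start inside the gene: the peak centre of Pcdhgc4 lay 281 bp after its 5′ end but at -41 bp from such a start, and that of Pcdhga12 lay 330 bp after the 5′ end and 137 bp after the other start. For Pcdhb22 the centre lay 408 and 440 bp after the 5′ end and at -80 and -48 bp from another start. A footprint, a short stretch protected from cleavage as under a bound protein, overlapped the promoter peak of 33 of 37 members in replicate 1 and 21 of 26 in replicate 2, against 98.1% and 97.7% of all genes with a promoter peak. The C-type peaks all held at least 1 footprint in each library, with 8 in Pcdhac2 in replicate 2.

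**Figure D3:**
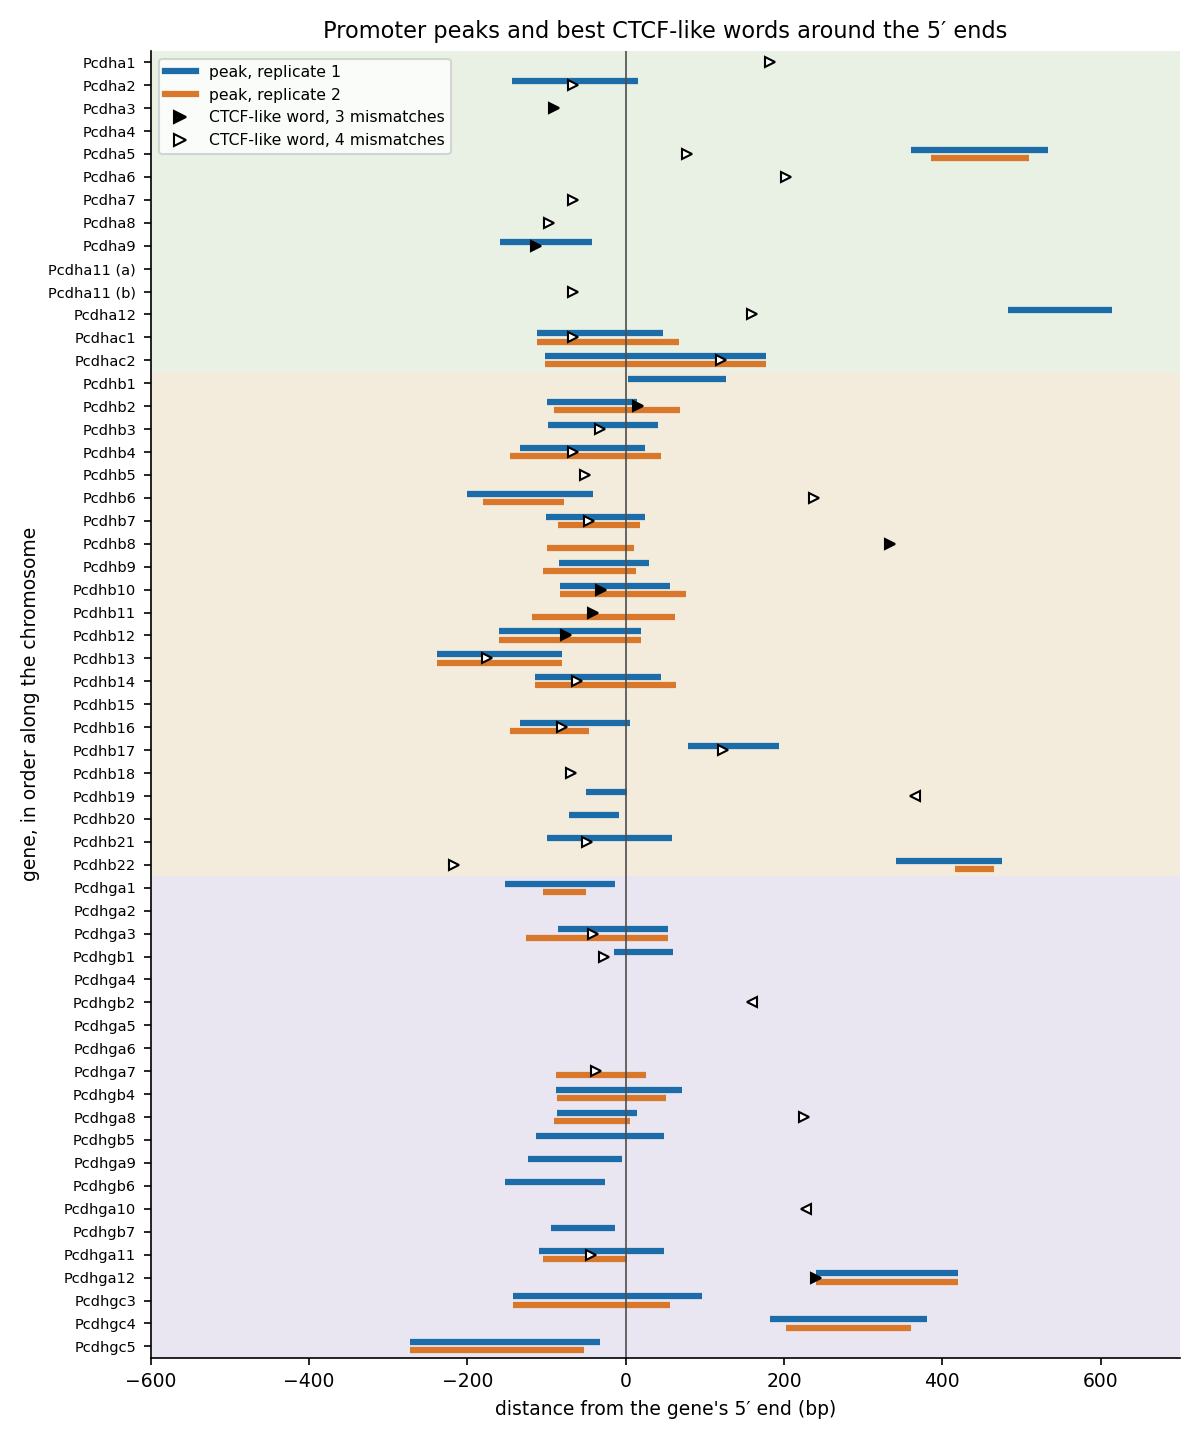
Extent of the promoter peak of each member relative to the 5′ end of its gene (bp, x axis), in replicate 1 (upper bar) and replicate 2 (lower bar), with triangles at the best CTCF-like word where it had at most 4 mismatches (filled, 3 mismatches), pointing along the strand it lies on. Most bars cover the stretch just before the start, and most triangles in the beta cluster fall inside the bars and point in the direction of the genes. Equal matches were given to the plus strand, on which the genes lie.

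Words that resemble the CTCF consensus lay at a recurrent place. The DNA within 500 bp of each 5′ end was searched on both strands for a 19-base consensus for CTCF. With at most 3 mismatches it was found at 8 of 57 members (14.0%), Pcdha3, Pcdha9, Pcdhb2, Pcdhb8, Pcdhb10, Pcdhb11, Pcdhb12 and Pcdhga12, against 17.9% of all protein-coding genes. At most 4 mismatches were found at 38 members (66.7%) and 61.7% of all genes. The number of members with a word was therefore near the background. The best match of 29 of 57 members (50.9%) was centred 20 to 120 bp before the start, against 12.2% of other protein-coding genes. It lay on the gene's own strand in 52 of 57 (91.2%), against 51.9%. Equal matches were given to the plus strand and to the lowest coordinate. For the members, all on the plus strand, this favours their own strand and upstream places, while other genes lie on both strands. Both shares may be raised for the members in this way, by an amount that was not tested. The window of 20 to 120 bp was chosen after the positions were seen, and as the members are related copies they are not independent cases.

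By cluster, this placement held for 15 of 22 beta, 8 of 14 alpha and 6 of 21 gamma members. The best word lay inside the promoter peak in 22 of 37 cases in replicate 1 and 18 of 26 in replicate 2. A footprint overlapped it, by any length, in 20 of those 22 and 10 of those 18. The same shares over all protein-coding genes were not computed, so these counts are not shown to be particular to the members. A footprint lay somewhere in 98.1% and 97.7% of all promoter peaks. Pcdhb10, with a word of 3 mismatches at -31 bp, and Pcdhac1, with 4 mismatches at -66 bp, had both the peak and the footprint over the word in each library. The same held for Pcdhb4, Pcdhb13, Pcdhb16, Pcdhga3, Pcdhgb4 and Pcdhga11. Alpha genes with no peak carried such words too: that of Pcdha3 had 3 mismatches and lay at -91 bp. The consensus of REST, a repressor of neuronal genes, was at no member with at most 3 mismatches, and was at 0.374% of all genes. A match in letters is a description and no evidence of binding, and no match says nothing about the factor.

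Between and beside the clusters the strongest distal peaks lay in 2 places, one beyond the alpha constant exons and one beyond the gamma cluster. Over the clusters and 100 kb on each side there were 20 distal peaks in replicate 1 and 19 in replicate 2, meaning peaks over 1000 bp from any annotated start, and 17 were found in both. As background, enhancers of the alpha cluster have been described within its constant part and beyond its last exon, and a group of enhancers acting on beta and gamma genes beyond the gamma cluster. The files name no such elements and the peaks were not matched to them.

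**Figure D4:**
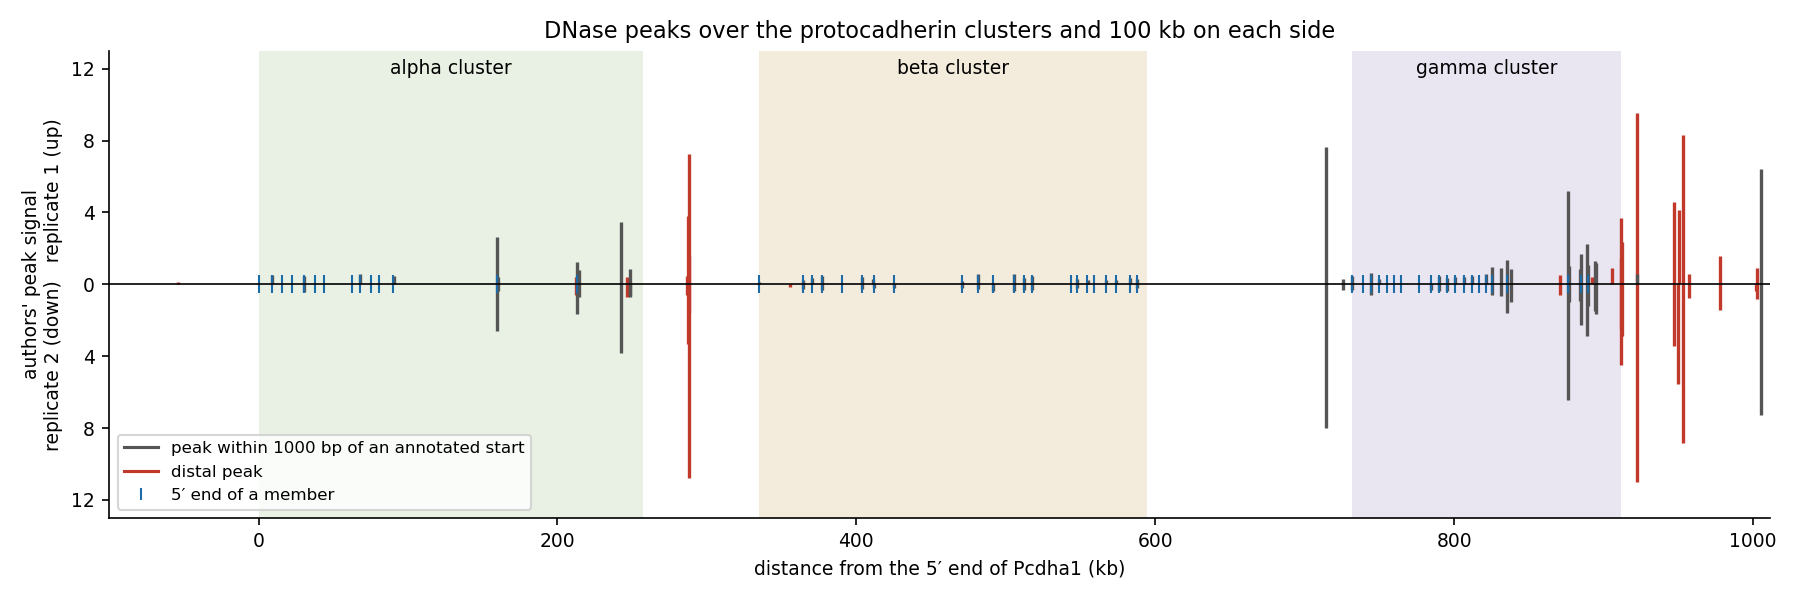
Peak signal along the locus against distance from the 5′ end of Pcdha1 (kb), with replicate 1 upward and replicate 2 downward, distal peaks in red, peaks within 1000 bp of an annotated start in grey, ticks at the 5′ ends of members and shading over the clusters. The tallest red lines stand between alpha and beta and beyond gamma, while the beta cluster shows only short lines at its promoters.

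The DNA between alpha and beta held 4 distal peaks in each library, all within a short stretch about 30 kb past the end of the alpha cluster. The strongest, chr18:37218221-37218460, measured 7.26 and 10.8 (9.02 ± 2.49, SD, n = 2), 30.7 kb past that end and -46.6 kb from Pcdhb1, at the 99.8th and 99.9th percentile of all distal peaks. Beside it stood chr18:37217381-37217560 with 3.81 and 3.31 (3.56 ± 0.35) and chr18:37217841-37218060 with 1.56 and 1.58. The strongest exceeded every promoter peak of the clusters in both libraries. Within the alpha cluster distal peaks were weak: 0.42 and 0.60 at chr18:37142177-37142426, -1.20 kb from the start of Pcdhac2, and 0.42 and 0.71 at chr18:37176816-37176940 in the constant part. A stronger peak in the constant part, chr18:37172301-37172460 with 3.45 and 3.84, lay 184 bp from the annotated start of Gm38097 and so counts as a promoter peak; it was singled out after its values were seen.

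Beyond the gamma cluster, most of the next 100 kb is the gene of Diaph1, an actin-nucleating formin transcribed towards the cluster, and it held 9 distal peaks in replicate 1 and 10 in replicate 2. The strongest was chr18:37852141-37852380, 10.4 kb past the gamma end, with 9.55 and 11.03 (10.3 ± 1.05), at the 99.9th percentile of distal peaks in each library. Its centre lay 1147 bp from the annotated start of Mir6979, not far past the limit of 1000 bp for a distal peak. Next came chr18:37883561-37883760, 41.8 kb past the end, with 8.30 and 8.85 (8.58 ± 0.39), and chr18:37880281-37880480 with 4.15 and 5.53 (4.84 ± 0.98). In the last constant exon of the gamma genes, chr18:37841401-37841820 measured 1.47 and 2.51. Inside the gamma array, the distal peak found in both libraries was chr18:37800901-37801100, -5.36 kb from the start of Pcdhgc3, with 0.49 and 0.58. The beta array held 0 distal peaks in replicate 1 and 1, of 0.18, in replicate 2, and the DNA between beta and gamma held none.

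**Figure D5:**
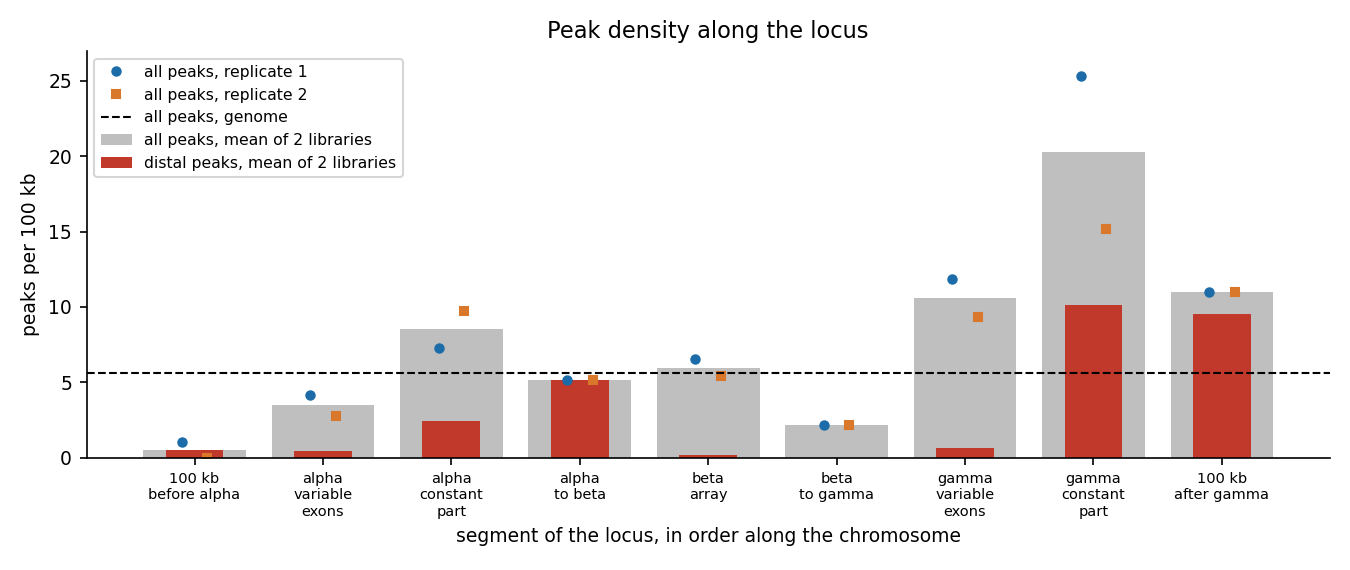
Peaks per 100 kb in 9 segments of the locus in order along the chromosome, as means of the 2 libraries for all peaks (grey bars) and distal peaks (red bars), with points for all peaks in each library and a dashed line at the genome's 5.62. The alpha constant part, the beta array, both gamma segments and the 100 kb after gamma lie above the line by their means, and the 100 kb before alpha, the alpha variable exons and the DNA between the clusters below it.

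Peak density also varied along the locus. The gamma constant part held 20.3 ± 7.16 peaks per 100 kb (SD, n = 2), the 100 kb after gamma 11 in each library and the gamma variable exons 10.6 ± 1.76, against 5.62 ± 0.12 over the genome and 5.64 ± 0.16 over chromosome 18. The alpha variable exons held 3.47 ± 0.98 and the beta array 5.97 ± 0.82, almost all of the latter at promoters. The DNA between alpha and beta held 5.18 in each library, below the genome, although some of the strongest distal peaks lie there. The gamma constant part is 19.7 kb long and its value rests on 5 and 3 peaks. In the DNA between beta and gamma, 2.18 per 100 kb, the 3 peaks of replicate 1 were those at the starts of Taf7, of 1 other annotated gene and of Pcdhga1, whose promoter lies at the end of that stretch.

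Some of the distal openings carried CTCF-like words, most of them on the strand opposite to the genes. Of the distal peaks 7 of 20 in replicate 1 (35.0%) and 6 of 19 in replicate 2 (31.6%) held a word with at most 3 mismatches, against 16.8% and 15.1% of all distal peaks of the genome. Among the 17 found in both libraries 7 held one within the extent that replicate 1 gave the peak, and footprints of both libraries overlapped each of these words. How often this holds for such words in other distal peaks was not computed. Of these words 6 lay on the minus strand and 1 on the plus strand, where the genes and 52 of 57 best promoter words lie on the plus strand. Equal matches were given to the plus strand, which may have raised the 52. The pair between alpha and beta with the highest signals both had 3 mismatches and lay on the minus strand. Beyond gamma, the word at chr18:37852141-37852380 had 2 mismatches on the minus strand and that at chr18:37883561-37883760 had 2 on the plus strand; in the last constant exon the word had 1 mismatch, on the minus strand. No distal peak of the locus held a REST-like word, which 0.122% and 0.0885% of all distal peaks did.

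Of the 4 protein-coding genes that border the clusters or lie between them, 3 had promoter peaks above the medians of all genes and 1 had none. Zmat2, the nearest protein-coding gene upstream, measured 8.0 and 10.7, and Diaph1 downstream 6.45 and 7.25. Between beta and gamma, Taf7, a subunit of the general transcription factor TFIID, measured 7.67 and 7.98, above every promoter of the clusters, and Slc25a2, a mitochondrial carrier, had no peak in either library.

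Most genes in lists of regulators, of other protocadherins and of partners and signalling had a promoter peak in both libraries. So did 66.7% of all protein-coding genes, whose medians were 3.47 and 3.91. All 25 of a list of regulators, which holds Ctcf, cohesin subunits and their loaders, DNA methyltransferases and demethylases and chromatin repressors, had a promoter peak in both libraries, with a median signal of 4.82 and 5.41. The highest were Stag1 (13.03 and 10.5) and Smc3 (10.7 and 12.1), both of cohesin, and Dnmt1 (8.70 and 8.97), the maintenance DNA methyltransferase. All 12 non-clustered protocadherins, single genes outside the clusters, were open in both, with a median of 2.10 and 2.46. They were led by Pcdh10 (8.85 and 11.8), Pcdh9 (7.52 and 11.7) and Pcdh17 (6.11 and 7.90). Their medians lay below those of all genes. Of 24 partners and signalling genes 22 were open in both, with a median of 2.59 and 3.21, led by Wasf1 (8.10 and 11.9), a subunit of the WAVE complex that some protocadherin tails recruit, Fyn (7.29 and 10.5) and Rac1 (6.80 and 6.54), and this list's medians were also below those of all genes. Dchs1 (0.55) and Ret (0.56) were open in replicate 1 only. The variable clustered genes, with medians of 0.40 and 0.33, thus lay below each of these lists.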

How the data were processed

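DNase-seq peak lists, footprints and cleavage-rate intervals of 2 libraries were used as deposited. Per the file notes they were made per library from mm10 alignments; for the aligner and callers: not given in the sources used here. The deposited peak signal (column 7) has no stated scaling, so a depth scaling is assumed and levels are compared mainly within a library. The deposited q-value files list intervals up to 0.05, and the deposited footprint score holds 1 constant value and was not used.

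A promoter peak overlapped 1000 bp on either side of any GENCODE M21 start of a gene, on 21 chromosomes; distal peaks were centred further away. GRCm38 sequence within 500 bp of 5′ ends was searched for CTCF (19 bases) and REST (21 bases) consensus words with at most 3 mismatches. Copies were counted as exact 31-base words. Members and lists were chosen with earlier results of these data known. Named genes were the C-type genes, the 5 highest and 3 lowest open in both libraries per cluster, all members open in 1 library or none, the bordering genes, the 3 strongest shared distal peaks per segment and the 3 highest genes of each list. Scripts were tested on simulated peaks and words. Alternatives were the peak list, window, starts, peak height, overlap, mismatches and each library alone. Python 3.11.15, NumPy, pandas and SciPy were used.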

Additional observations from a re-analysis of the deposited data

How the results depend on the processing

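Each count and median was recomputed with another peak list, window, set of starts and peak height and from each library alone. Windows of 500 and 2500 bp and 5′ ends alone changed none of the member counts or medians. With the stricter peak list the mean number of members with a promoter peak was 2.5 in the alpha, 5.5 in the beta and 5.5 in the gamma cluster and 13.5 in all, instead of 4.5, 15, 12 and 31.5, and 12 members, not 27, had a footprint there. With the stronger 50% of all peaks these counts were 2.5, 1, 5.5 and 9. The median signal then rose, as fewer weak peaks enter it: to 0.411 (beta), 1.89 (gamma) and 0.459 (variable genes) with the stricter list, from 0.291, 0.547 and 0.36, and to 1.95 (gamma) and 1.07 (variable genes) with the stronger peaks. The C-type median kept its value of 2.40 under both. A beta median for the stronger peaks could not be had, since no beta promoter passed that height in replicate 2. With each library alone the counts ran from 3 to 6 (alpha), 13 to 17 (beta), 10 to 14 (gamma) and 26 to 37 (all), and the alpha median from 0.533 to 1.63, since Pcdha5 is the 1 variable alpha gene called in replicate 2. The CTCF-like word was found at 0 members with at most 2 mismatches and 38 with at most 4, against 8 with at most 3, and at 3.21% of all genes with at most 2. Distal peaks kept their counts within 1.5 times. No paired analysis was possible because there is only 1 group.

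The median variable peak measured 83.5 and 53.0 steps. A member with no called peak is not shown to be closed: Pcdha8 had 13 bases with a q-value up to 0.05 in replicate 1 and no peak. Read depth is not given in the files used, and its part in the missing peaks was not tested.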
